A study of Mus musculus with 12 samples.

Results

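The 88 rows described here stand for the nuclear-encoded part of the oxidative phosphorylation machinery, and not all of them are genes for its subunits. They were chosen by symbol, as every row for the Nduf, Sdh, Uqcr, Cox4 to Cox8 and Atp5 subunits together with Cyc1 and Cycs, and they are 88 of the 23764 Ensembl identifiers in the series. By complex, 35 belong to complex I, 4 to complex II, 9 to complex III, 19 to complex IV and 19 to complex V, and 2 rows stand for cytochrome c. Atp5s and Atp5sl carry the family's symbols but are not structural subunits of the ATP synthase. Another 4 rows are gene copies listed under a parent's symbol: Gm10053 of Cycs, Gm11273 of Cox5b, Gm10175 of Atp5g2 and Gm10221 of Atp5l. Gm10175 and Gm10221 are annotated as processed pseudogenes, Gm10053 and Gm11273 as protein-coding. All are counted as members below. Reads of a parent and its copy may have been split between the rows. Cox4i2, Cox6b2, Cox8b and Ndufa4l2 had a mean under 10 normalized counts in every group and entered no test, which left 84 rows tested.

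The cells were RAW264.7, a macrophage-like line of Balb/c origin and a single immortalized line, which forms osteoclast-like cells when given RANKL, the cytokine that drives osteoclast formation. All 6 groups received RANKL. At days 1, 3 and 5 the cells had been given either the culture supernatant of the bacterium Lactobacillus reuteri or vehicle, and 2 libraries of each arm were sequenced on each of the 3 days. The labels name RPMI 1640 or MEM-alpha with serum as growth medium without saying which library had which, and do not say whether the 2 libraries of a group came from separate cultures, so p-values measure library-to-library spread that may be technical only.

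Oxidative phosphorylation passes electrons from NADH through complex I, and from succinate through complex II, by way of complex III and cytochrome c to complex IV, which reduces oxygen. The proton gradient that complexes I, III and IV build drives complex V, the ATP synthase. Most subunits are encoded in the nucleus and imported, and a small set in complexes I, III, IV and V is encoded by mitochondrial DNA. Osteoclasts are known for dense mitochondria and a high demand for ATP, used in part for acid secretion.

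Depth was between 8071160 and 16781080 recovered reads per library, and 4 libraries stood apart. In replicate 2 of both arms at days 3 and 5, reads of nuclear protein-coding genes were 38.1 to 48.8% of the total and mitochondrial reads 25.7 to 30.6%. The remaining 8 held 85.2 to 87.6% and 3.64 to 5.97%. The 4 are called mRNA-poor below and the other 8 mRNA-rich. The 8 macrophage markers listed were all found. Their summed normalized counts were 123804 to 173364 at day 1 and, in the mRNA-rich libraries, 77264 with vehicle and 101756 with supernatant at day 3 and 331051 and 323448 at day 5, and 20345 to 141940 in the mRNA-poor libraries. Markers of T cells, B cells, fibroblasts, epithelium, endothelium and red cells summed to at most 42.1 in any library. The 10 osteoclast markers summed to 3745 to 3994 at day 1 and, in the mRNA-rich libraries, to 17437 (vehicle) and 13753 (supernatant) at day 3 and to 3502 and 3177 at day 5. In the mRNA-poor libraries the order of the days was the opposite, with 4067 and 6518 at day 3 and 16090 and 17656 at day 5.

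A limma fit over all 12 libraries called none of the 14715 tested genes at an adjusted p under 0.05 in any of 8 comparisons (0%), and no member reached an unadjusted p under 0.05 in any of them. The calls below come from a limma fit on the 8 mRNA-rich libraries. It has 2 residual degrees of freedom, both from day 1, and assumes that the single libraries of days 3 and 5 vary like those of day 1. "Rose" and "fell" mean an adjusted p under 0.05 over all tested genes in that fit, differences are log2 differences of normalized count + 1 given ± SE, and no called direction was tested in a replicate of day 3 or 5. In a bulk sample, fewer cells of a type and less RNA per cell cannot be told apart.

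Members made up 0.914 and 0.891% of nuclear protein-coding reads in the vehicle libraries of day 1 and 0.832 and 0.827% in the supernatant libraries. In the mRNA-rich libraries the share was 1.19% at day 3 and 0.750% at day 5 with vehicle, and 1.06% and 0.640% with supernatant. The mRNA-poor libraries held 0.890% at day 3 and 1.25% at day 5 with vehicle, and 1.02% at both days with supernatant. Thus the vehicle arm had its highest share at day 3 among the mRNA-rich libraries and at day 5 among the mRNA-poor ones. With vehicle, the summed osteoclast markers, though not each marker, had the same order of days in each kind of library. In the mRNA-poor supernatant libraries they summed to 6518 at day 3 and 17656 at day 5, while the members' share was 1.02% at both days. The part of the cell mixture and of the RNA in these shares was not tested.

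**Figure D1:**
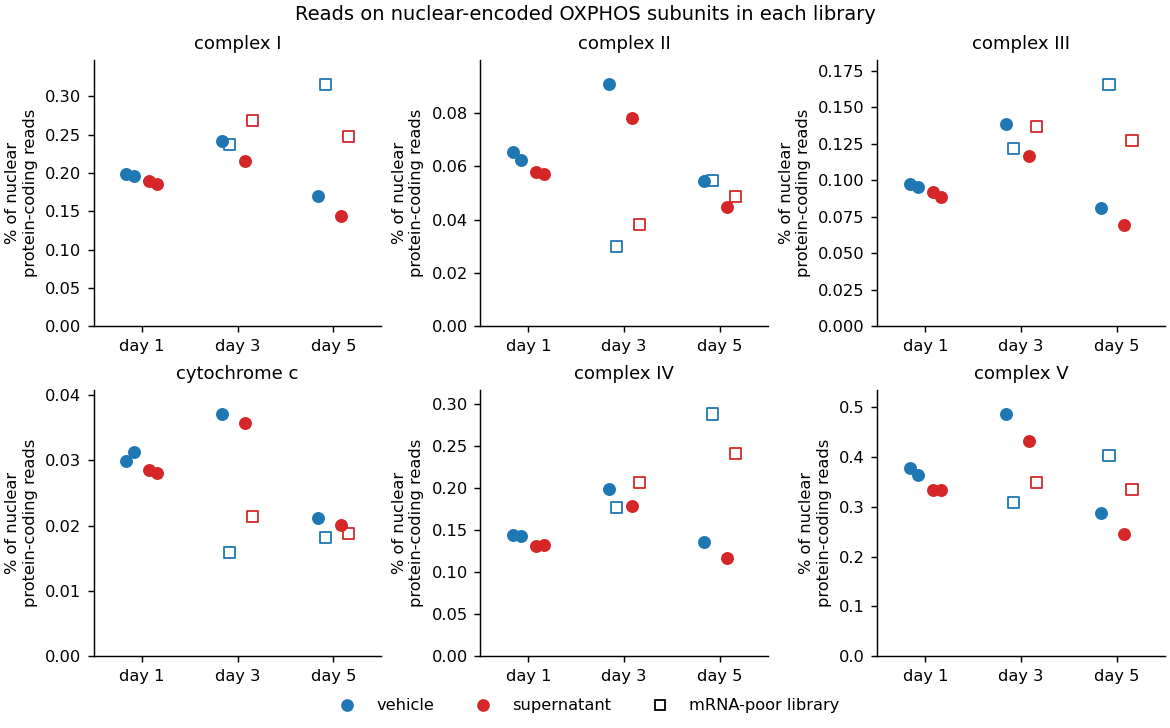
Share of nuclear protein-coding reads (y axis, percent) taken by the members of each complex in each of 12 libraries, by day (x axis); filled circles are mRNA-rich and open squares mRNA-poor libraries, blue vehicle and red supernatant. Filled points are highest at day 3 in both arms and every panel, while with vehicle the open points rise from day 3 to day 5 in every panel.

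Per kilobase of transcript, the levels in vehicle cells of day 1 spanned a wide range. Atp5b, the catalytic beta subunit of the ATP synthase, was the highest, at 6512 and 6209 normalized counts per kilobase, followed by Atp5a1, its alpha partner, at 3599.8 and 3342. Cox4i1, a structural subunit of complex IV, stood at 3597 and 3302, and Uqcrh, the hinge protein of complex III, at 3555 and 3180.1. Atp5a1, Cox4i1 and Uqcrh overlapped in these 2 libraries, so their order is not resolved. Complex I members were lower, with Ndufs1, its largest iron-sulphur subunit, at 797 and 789.

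Between day 1 and day 3 many members rose in the mRNA-rich vehicle libraries. Of 84 members tested, 43 rose and 0 fell, where 9.69% of all genes rose and 10% fell, and the members' median difference was 0.38 against 0.04 over all genes. In the supernatant arm 39 members rose and 1 fell (all genes 10.8% and 9.13%), with a median of 0.28 against 0.07, and 34 members rose in both arms. How many of all tested genes were called in both arms was not counted, at day 3 or at day 5. Calls shared by both arms are therefore not set against a background. Over all 12 libraries the members' median had the opposite sign, -0.38 against -0.83 over all genes with vehicle and -0.13 against -0.55 with supernatant. Beside these differences, the macrophage marker sum of the mRNA-rich libraries was lower at day 3 than at day 1 and higher at day 5. The osteoclast marker sum did the reverse. The median macrophage marker differed by -0.04 (vehicle) and -0.19 (supernatant) at day 3, and by 1.14 and 0.86 at day 5. The median of the 9 tested osteoclast markers was 2.05 and 2.12 at day 3, and 0.81 and -0.10 at day 5. At day 5 with vehicle it was thus above day 1 although the sum was below. The part of these markers in the members' values was not tested. Of the 84, 73 had their highest mRNA-rich level at day 3 with vehicle, as did 33.8% of all tested genes. The vehicle count was 0 when either vehicle library of day 1 was left out and 22 when either supernatant library of day 1 was; the supernatant count of called members was 6 and 0 in the same order. The 2 later days are each compared with the same day 1 libraries.

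Complex II, the succinate dehydrogenase that also serves the citrate cycle, was the complex of which all members rose, 4 of 4 in both arms. Sdhd, one of its membrane anchors, counted 1539 and 1505 with vehicle at day 1 and 1234 and 1269.6 with supernatant, then 2449 and 2101 in the mRNA-rich libraries of day 3 and 1521 and 1228 in those of day 5. It rose by 0.69 ± 0.05 with vehicle (adjusted p = 0.00218) and by 0.75 ± 0.05 with supernatant (adjusted p = 0.00244), and its mRNA-rich levels of day 5 were back near those of day 1. In the mRNA-poor libraries Sdhd was far lower, at 353 and 518 at day 3 and 592 and 747 at day 5. Sdha, the flavoprotein that oxidizes succinate, rose by 0.45 ± 0.06 and 0.31 ± 0.06, Sdhb, the iron-sulphur subunit, by 0.53 ± 0.07 and 0.37 ± 0.07, and the other anchor Sdhc by 0.39 ± 0.07 and 0.43 ± 0.07, with vehicle and supernatant in that order.

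Complex III rose in 7 of 9 members with vehicle and 5 of 9 with supernatant. Uqcrfs1, the Rieske iron-sulphur protein, counted 1019 and 977 at day 1, 1542 at day 3 and 852 at day 5 with vehicle, and 938 and 969, 1233 and 722 with supernatant. The day 3 level was above both day 1 libraries in each arm, a rise of 0.63 ± 0.06 (adjusted p = 0.00383) and 0.37 ± 0.06 (adjusted p = 0.017). Cyc1, cytochrome c1, rose by 0.62 ± 0.07 and 0.54 ± 0.07, and Uqcrh had the largest rise of the complex with vehicle, 0.71 ± 0.08, with 0.65 ± 0.08 under supernatant. Uqcr10 rose by 0.65 ± 0.08 with vehicle. The core proteins Uqcrc1 and Uqcrc2 rose by 0.45 ± 0.06 and 0.57 ± 0.06 with vehicle, and Uqcrc2 by 0.37 ± 0.06 with supernatant. Uqcrq, a small structural subunit, counted 833 and 768 at day 1 and 806 at day 3, inside its day 1 range.

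Cycs, the mobile electron carrier between complexes III and IV, rose by 0.31 ± 0.05 with vehicle and 0.33 ± 0.05 with supernatant. Its counts were 2371 and 2451 at day 1 and 2984 at day 3 with vehicle, and 2269, 2232 and 2822 with supernatant, before any reads that the copy Gm10053 may have taken.

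In complex IV, 9 of 15 tested members rose with vehicle and 10 of 15 with supernatant. Ndufa4, first assigned to complex I and now known as a complex IV subunit, went from 988 and 1014 to 1600.2 with vehicle and from 926 and 917 to 1426 with supernatant, a rise of 0.68 ± 0.06 (adjusted p = 0.00256) and 0.63 ± 0.06 (adjusted p = 0.00382). Cox8a, a small membrane subunit, had the largest called rise of the complex, 0.79 ± 0.14 and 0.67 ± 0.14. Cox4i1 rose by 0.44 ± 0.07 and 0.33 ± 0.07. For Cox5a, which helps to hold the catalytic core, the difference was 0.23 ± 0.08 with vehicle, not called, and a rise of 0.38 ± 0.08 with supernatant; whether the arms differ there was not tested gene by gene.

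Complex V rose in 12 of 19 members with vehicle and 11 of 19 with supernatant, the pseudogene Gm10221 among them in both arms. Atp5b stood at 12476 and 11896 with vehicle at day 1, at 16057 at day 3 and at 8523 at day 5, and with supernatant at 10990.0 and 10939, 14096 and 7218. Its rise to day 3 was 0.40 ± 0.06 and 0.36 ± 0.06, and that of Atp5a1 was 0.38 ± 0.07 and 0.42 ± 0.07. Atp5o, the OSCP stalk subunit, had the largest rise of the complex with vehicle, 0.58 ± 0.07, with 0.51 ± 0.07 under supernatant. Atp5s, whose product couples to the synthase without being a structural part, was at -0.32 ± 0.18 with vehicle and was not called.

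Complex I, the largest complex, rose in the smallest share of members: 10 of 35 with vehicle and 7 of 35 with supernatant. Among its core subunits, Ndufv1, which binds NADH, rose by 0.45 ± 0.07 and 0.46 ± 0.07, and Ndufs1 by 0.31 ± 0.05 and 0.25 ± 0.05. The accessory subunit Ndufa6 had the largest rise with vehicle, 0.66 ± 0.09, and Ndufa10 rose by 0.53 ± 0.05 and 0.47 ± 0.05. At the other end, Ndufv3 was at -0.33 ± 0.09 and Ndufb3, a membrane-arm subunit, at -0.07 ± 0.07 with vehicle, and neither was called. The difference between complexes in these shares was not tested.

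**Figure D2:**
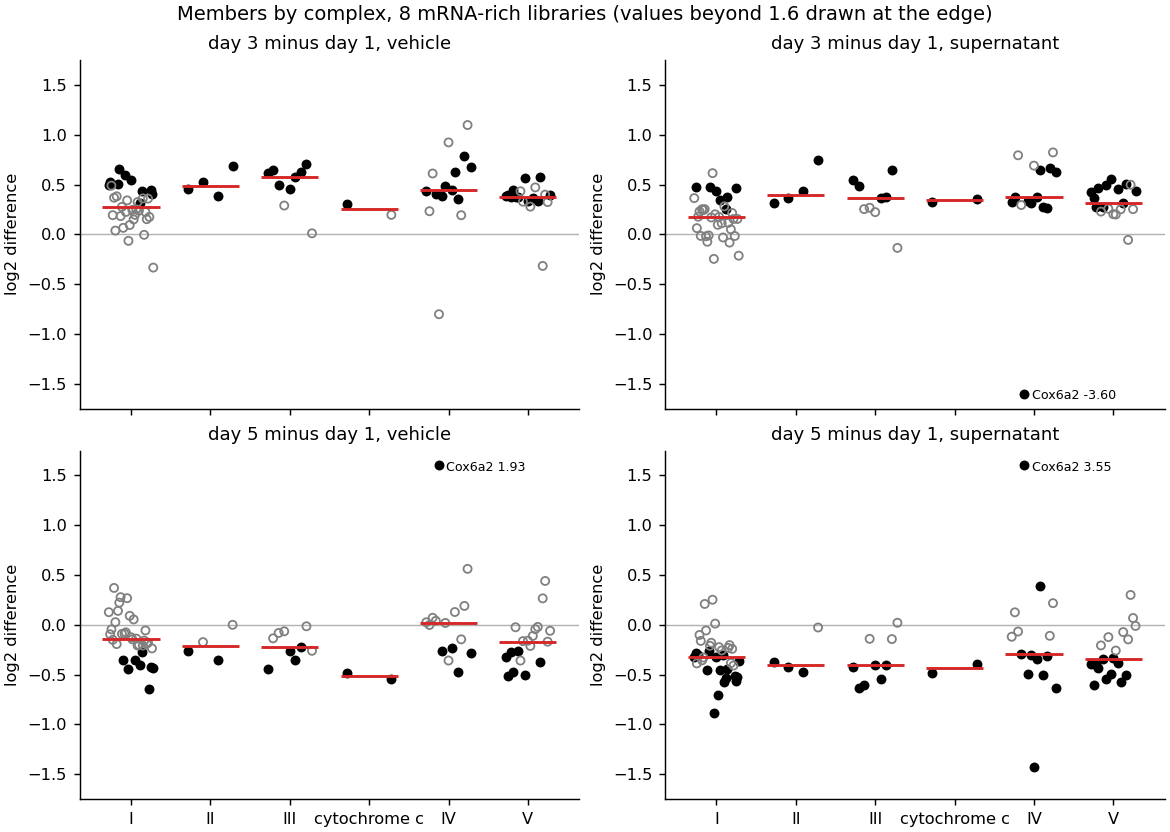
Log2 difference from day 1 (y axis) of each tested member by complex (x axis) at day 3 (top) and day 5 (bottom), with vehicle (left) and supernatant (right), in the 8 mRNA-rich libraries; filled points passed an adjusted p of 0.05, open points did not, and red bars are medians. Most points lie above 0 at day 3 and below 0 at day 5, and Cox6a2 is the member that leaves the range.

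Since many members moved together, their promoters were searched for the binding motifs of factors known to act on such genes. RefSeq gives a window of 300 bases, 250 before to 50 after the start (build GRCm38.p6), for 66 of the 88 rows. The others include Ndufa2, Ndufb9, Ndufs1, Sdhc, Cyc1, Uqcrb, Uqcrc2, Uqcrq, Cox4i1, Cox4i2, Cox6a2, Cox6c, Gm11273, Ndufa4l2, Atp5a1, Atp5f1, Atp5s, Atp5sl, Gm10175, Gm10221 and Gm10053. Both strands were searched for NRF1 (GCATGCGC), YY1 (AAGATGGC), the ETS core bound by GABPA (CCGGAAG) and the estrogen-related receptors (CAAGGTCA); no motif contains another, and matches may overlap. At least 1 of the 4 was present in 48.5% of members, in 30.6% of the 9524 tested genes with a window and in 16.4% of all 27025 genes with one. The NRF1 motif was in 11 of 66 members (16.7%, against 6.08% of tested genes and 3.05% of all), YY1 in 9 (13.6%, against 5.58% and 3.19%), ETS in 16 (24.2%, against 21.1% and 9.93%) and the estrogen-related receptor motif in 4 (6.06%, against 1.40% and 1.76%). The next 5 sequences are the 250 bases before the start, 5′ to 3′ on the gene's strand, of members that rose at day 3 in both arms or, for Cox6a1, with vehicle, chosen to show the NRF1, ETS and estrogen-related receptor motifs. Capitals mark motif matches on either strand.
Cycs, chr6:50566570-50566819, minus strand: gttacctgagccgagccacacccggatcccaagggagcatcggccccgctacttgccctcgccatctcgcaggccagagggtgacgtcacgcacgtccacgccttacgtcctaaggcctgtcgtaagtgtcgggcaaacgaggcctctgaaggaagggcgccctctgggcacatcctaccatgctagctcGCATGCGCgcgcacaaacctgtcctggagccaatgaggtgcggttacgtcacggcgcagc
Sdhb, chr4:140961021-140961270, plus strand: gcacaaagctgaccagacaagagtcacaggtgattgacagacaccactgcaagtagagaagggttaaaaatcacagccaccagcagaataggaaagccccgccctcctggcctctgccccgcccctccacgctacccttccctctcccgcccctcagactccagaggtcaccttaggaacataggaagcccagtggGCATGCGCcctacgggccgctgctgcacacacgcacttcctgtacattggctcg
Cox6a1, chr5:115348959-115349208, minus strand: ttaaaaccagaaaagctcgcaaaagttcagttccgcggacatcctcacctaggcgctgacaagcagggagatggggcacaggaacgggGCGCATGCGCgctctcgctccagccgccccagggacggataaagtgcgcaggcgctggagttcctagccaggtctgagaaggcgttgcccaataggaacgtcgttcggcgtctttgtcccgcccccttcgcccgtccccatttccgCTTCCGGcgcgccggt
Atp5l, chr9:44920743-44920992, minus strand: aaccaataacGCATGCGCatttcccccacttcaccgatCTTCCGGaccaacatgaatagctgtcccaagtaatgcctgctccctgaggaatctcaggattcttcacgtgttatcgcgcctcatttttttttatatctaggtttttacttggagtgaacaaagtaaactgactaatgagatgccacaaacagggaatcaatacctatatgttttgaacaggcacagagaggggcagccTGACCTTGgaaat
Atp5g3, chr2:73911327-73911576, minus strand: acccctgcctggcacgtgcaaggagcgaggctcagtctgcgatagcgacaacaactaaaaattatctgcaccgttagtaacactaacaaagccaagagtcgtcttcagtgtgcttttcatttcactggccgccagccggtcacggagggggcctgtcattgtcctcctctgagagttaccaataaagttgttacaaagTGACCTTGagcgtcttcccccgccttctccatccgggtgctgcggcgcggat
Cycs and Sdhb show an NRF1 match, Cox6a1 overlapping NRF1 matches and an ETS core, Atp5l the NRF1, ETS and estrogen-related receptor motifs, and Atp5g3 the last of these alone. Atp5g3, one of 3 genes for the c ring of the ATP synthase, rose by 0.56 ± 0.08 and 0.55 ± 0.08, Atp5l, subunit g of its membrane part, by 0.34 ± 0.06 and 0.32 ± 0.06, and Cox6a1 by 0.40 ± 0.08 with vehicle. The day 3 vehicle median was 0.36 in the 32 tested members with at least 1 motif and 0.44 in the 32 with none, and 15 and 18 of them rose. With supernatant the medians were 0.24 with a motif and 0.37 without, also lower with a motif, and the difference was not tested. A match is a description of these letters and not evidence of binding.

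At day 5 more members had fallen than risen relative to day 1 in the mRNA-rich libraries. Over all 12 libraries the members' median was -0.24 against -0.59 over all genes with vehicle. With supernatant it was -0.29 against -0.49, so there the members lay above the median gene in both arms. With vehicle 27 members fell and 1 rose (all genes 15% and 14.4%), with a median of -0.16 against 0.00 over all genes. With supernatant 47 fell and 2 rose (all genes 18.1% and 12.9%), with a median of -0.33 against -0.05, and all 27 that fell with vehicle were among the 47. The count of called members with vehicle was 1 without either vehicle library of day 1 and 14 without either supernatant library; that with supernatant was 32 without either vehicle library, 16 without supernatant replicate 1 and 22 without supernatant replicate 2.

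Ndufb3 had the largest fall of complex I with supernatant. Its counts were 759 and 715 at day 1, 704 at day 3 and 540.1 at day 5 with vehicle, and 720.1, 746, 617 and 395 with supernatant. It changed by -0.45 ± 0.07 with vehicle (adjusted p = 0.0109) and by -0.89 ± 0.07 with supernatant (adjusted p = 0.00248). Ndufs1 fell from 2093 and 2071 to 1573 with vehicle and from 1909 and 1898 to 1317 with supernatant, differences of -0.40 ± 0.05 and -0.53 ± 0.05. The values for Ndufv1 were -0.42 ± 0.07 and -0.56 ± 0.07, both falls. Ndufs8, an iron-sulphur subunit, had the largest fall of complex I with vehicle, -0.64 ± 0.09, and Ndufb6 fell with supernatant, -0.70 ± 0.09. Ndufa10 fell with supernatant, -0.28 ± 0.05, from 1041 and 1037 at day 1 to 855. The mRNA-poor supernatant library of day 5 held 1647, above both of day 1. For Ndufs8 with vehicle, day 1 had 706 and 639 and the mRNA-rich library of day 5 had 430. The mRNA-poor one had 695, inside the day 1 range. In all, 8 of 35 complex I members fell with vehicle and 17 of 35 with supernatant.

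In complex II, 2 of 4 members fell with vehicle and 3 of 4 with supernatant. The values were -0.26 ± 0.06 and -0.38 ± 0.06 for Sdha, -0.35 ± 0.07 and -0.47 ± 0.07 for Sdhc, and -0.42 ± 0.07 with supernatant for Sdhb. In complex III 4 of 9 fell with vehicle and 6 of 9 with supernatant. Cyc1 changed by -0.44 ± 0.07 and -0.42 ± 0.07, Uqcrc2 by -0.36 ± 0.06 and -0.54 ± 0.06, Uqcrc1 by -0.26 ± 0.06 and -0.40 ± 0.06, and Uqcrfs1 by -0.23 ± 0.06 and -0.40 ± 0.06. Uqcr10 fell with supernatant, -0.63 ± 0.08, from 392 and 367 at day 1 to 244. The mRNA-poor supernatant library of day 5 held 629, above both of day 1. Cycs fell from the day 1 counts above to 1723 and 1612, differences of -0.48 ± 0.05 and -0.48 ± 0.05.

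Complex IV was less uniform at day 5, with 4 of 15 members fallen and 1 risen with vehicle, and 8 fallen and 2 risen with supernatant. Cox7b, a small membrane subunit, changed by -0.47 ± 0.06 and -0.51 ± 0.06, and Ndufa4 by -0.28 ± 0.06 and -0.64 ± 0.06. Cox4i1 counted 2716 and 2493 at day 1, 3529 at day 3 and 2646 at day 5 with vehicle, inside its day 1 range at the end, and was at -0.12 ± 0.07 with supernatant (adjusted p = 0.264). In complex V, 7 of 19 fell with vehicle and 11 of 19 with supernatant. Atp5b changed by -0.52 ± 0.06 (adjusted p = 0.00484) and -0.60 ± 0.06 (adjusted p = 0.00355), and Atp5a1 by -0.33 ± 0.07 and -0.39 ± 0.07.

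The supernatant was compared with vehicle on each day. At day 1, where all 4 libraries are mRNA-rich, the members lay slightly lower with supernatant: the median was -0.09 against -0.04 over all genes, and 45 of 84 members had both supernatant libraries below both vehicle libraries, as did 33.4% of all tested genes, while 4 members had both above (21.4%). By the test 1 member fell and 0 rose, where 2.62% of genes fell and 3.12% rose; 19 members had an unadjusted p under 0.05, all lower, and limma-voom called 5. The member was Sdhd, at -0.28 ± 0.04 (adjusted p = 0.0338) with the day 1 counts above, and the call was lost when any 1 of the 4 day 1 libraries was left out. Cox5a had the largest difference of the tested members, with 1278 and 1136 under vehicle and 950.4 and 955 under supernatant (-0.34 ± 0.07, adjusted p = 0.0568), and missed the threshold although the groups do not overlap. Atp5g3 was at -0.27 ± 0.07 and Ndufa11 at 0.16 ± 0.13, neither called, and Ndufa11 ranged from 0.04 to 0.29 when 1 day 1 library was left out. For Ndufb2, 178 and 295 with vehicle and 142 and 276 with supernatant, the spread within a group exceeded the difference (-0.21 ± 0.38), whose sign turned without vehicle replicate 2 (0.15) or supernatant replicate 1 (0.27) and which was -0.69 without supernatant replicate 2.

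At day 3 the 2 kinds of library gave opposite signs. In the mRNA-rich pair 79 of 84 members were lower with supernatant (median -0.18 against -0.01 over all genes); in the mRNA-poor pair all 84 were higher (median 0.53 against 0.46 over all genes). As a share of nuclear protein-coding reads, 78 members were lower in the first pair and 11 in the second. The fit on mRNA-rich libraries called 0 members (all genes 0.116% risen and 0% fallen), 28 had an unadjusted p under 0.05, all lower, and limma-voom called 2. By complex the lowest members were Cox6a2 in IV, which had 0 reads in the supernatant library of that pair, Ndufa6 in I (-0.43 ± 0.10), Sdha in II (-0.29 ± 0.07), Uqcr11 in III (-0.36 ± 0.11) and Atp5g3 in V (-0.28 ± 0.09), and Uqcrc2 was at -0.34 ± 0.07 with an adjusted p of 0.18. Fits on all 12 libraries, which add the mRNA-poor pair, turned the signs of Ndufa6 (0.26), Sdha (0.015), Uqcr11 (0.027) and the members' median (0.17). A term for mRNA-poor libraries is shared by both arms of a day and leaves a difference between arms unchanged. The members' median was 0.17 with and without it.

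At day 5, 8 members fell and 1 rose with supernatant in the mRNA-rich libraries, where 3.27% of genes fell and 2.54% rose, and the median was -0.25 against -0.09 over all genes. In the mRNA-rich pair 78 of 84 members were lower, and in the mRNA-poor pair 50 were, 72 when taken as a share of nuclear protein-coding reads. Of the 8 that fell, those from complex I were Ndufb6 (-0.63 ± 0.10), Ndufc2 (-0.53 ± 0.10) and Ndufb3 (-0.45 ± 0.08). From complex III they were Uqcr10 (-0.60 ± 0.10) and Uqcr11 (-0.64 ± 0.11), and from complex IV Ndufa4 (-0.48 ± 0.07), Cox6c (-0.39 ± 0.07) and Cox6b1 (-0.35 ± 0.06). Their adjusted p lay between 0.0263 and 0.0476, and no member was called when any 1 day 1 library was left out. In complexes II and V none was called, with Atp5k, subunit e of the membrane part, at -0.58 ± 0.15 and an adjusted p of 0.0895.

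Uqcr10, which sits beside cytochrome c1, counted 372 with vehicle and 244 with supernatant in the mRNA-rich pair and 917 and 629 in the mRNA-poor pair, lower with supernatant in both. Uqcr11 showed the same order, 439 and 281, then 1044 and 837. Ndufb6, by contrast, was at 310.1 and 200.03 in the first pair and 169.5 and 184 in the second, with opposite signs. Ndufa4 was at 823 and 591, then 859 and 852, nearly equal in the second pair. Ndufb3 and Cox6c were nearly equal there too, at 266 and 265 and at 1079 and 1069. Ndufc2, at 285 and 265, and Cox6b1, at 1036 and 965, were lower with supernatant in the second pair as well. Uqcrq and Ndufs8 were the members of complexes III and I that lay highest, at 0.25 ± 0.11 and 0.12 ± 0.10, not called. Ndufs8 was at -0.14 over all 12 libraries, where the mRNA-poor pair is added. An F test for a treatment effect that differs between days called 0 members over 12 libraries and 0 over the 8 mRNA-rich ones, where 10 had an unadjusted p under 0.05 and limma-voom called 1.

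**Figure D3:**
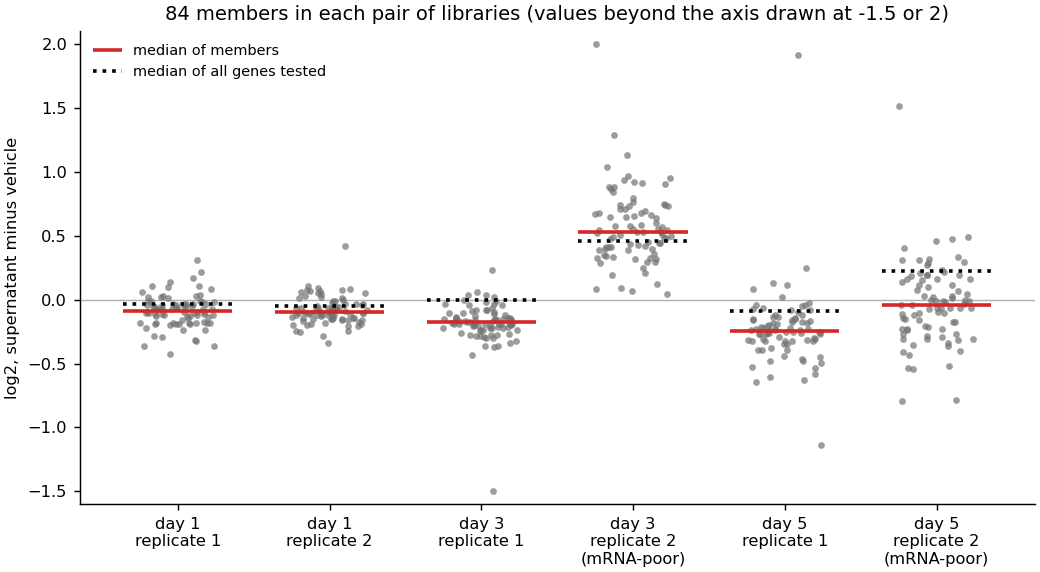
Log2 difference between the supernatant and the vehicle library (y axis) for 84 members in each of 6 pairs of the same day and replicate number (x axis); red bars are the members' medians and dotted bars the medians of all tested genes. The red bar lies below 0 in the 2 pairs of day 1 and the mRNA-rich pairs of days 3 and 5, at 0.53 in the mRNA-poor pair of day 3, and at -0.04 in that of day 5, where the dotted bar is at 0.23.

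Several subunits of complex IV have alternative isoforms, which were examined one family at a time. Cox4i1 counted 2018 to 3993 while Cox4i2, the isoform known from lung and hypoxia, had 9.2 and 12.8 in the mRNA-rich libraries of day 5 and at most 3.56 in any other library. Cox6b2, a testis isoform, and Cox8b, a muscle isoform, were listed at 0 in most libraries and at most 1.41 in any, and Ndufa4l2, known as a hypoxia target, ranged from 0 to 8.82.

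Cox6a2, the heart and muscle isoform of subunit 6a, was low but rose at day 5. It counted 9.85 and 8.08 with vehicle and 11.2 and 11.1 with supernatant at day 1, from 9 to 13 reads a library. At day 5 it stood at 36.8 (40 reads) and 141 (154 reads) in the mRNA-rich and at 8.48 (6 reads) and 26.1 (22 reads) in the mRNA-poor libraries, so that supernatant was higher in both pairs, and both supernatant libraries were above all 4 of day 1. It rose by 1.93 ± 0.30 with vehicle, by 3.55 ± 0.30 with supernatant (adjusted p = 0.0026) and by 1.91 ± 0.34 with supernatant over vehicle at day 5 (adjusted p = 0.0451). At day 3 it had 6 and 0 reads with vehicle and 0 and 3 with supernatant. It was the 1 member that fell with supernatant at day 3; against a limit of 3 reads for the library with 0, it was at least 4.75-fold lower there than the day 1 mean of 11.1, and fitted differences that rest on the 0 depend on the pseudocount. Cox6a1, the isoform found in most tissues, counted 858 and 687 at day 5 in the same mRNA-rich libraries.

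Cox7a2l, the Cox7a relative known to join complexes III and IV into supercomplexes, took another course than its complex. Its counts were 2207 and 2031 with vehicle and 1923 and 1828 with supernatant at day 1, 3259 and 2938 at day 3 and 2313 and 2455 at day 5 in the mRNA-rich libraries. The mRNA-poor libraries held 1248 and 2042 at day 3 and 2222 and 3114 at day 5. Supernatant libraries were thus below both vehicle libraries at day 1 and above both at day 5. It rose at day 3 (0.62 ± 0.07 and 0.65 ± 0.07) and was still up at day 5 with supernatant (0.39 ± 0.07, adjusted p = 0.0149), while the difference between arms was not called on day 1 (-0.18 ± 0.06) or day 5 (0.09 ± 0.08). Cox7a1, the muscle isoform, was low throughout, at 21.2 and 29.6 with vehicle and 21.5 and 26.5 with supernatant at day 1 and 19.3 and 8.26 at day 5, and fell with supernatant (-1.43 ± 0.32), with -1.13 ± 0.36 between arms at day 5, not called; in the mRNA-poor libraries of day 5 it was higher, at 62.2 and 35.6.

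The 3 genes Atp5g1, Atp5g2 and Atp5g3 encode the same mature c-ring protein of the ATP synthase. Atp5g3 rose at day 3 in both arms and fell at day 5 (-0.51 ± 0.08 and -0.50 ± 0.08). Atp5g1 was at 0.43 ± 0.11 at day 3 and -0.36 ± 0.11 at day 5 with vehicle, not called, and rose by 0.49 ± 0.11 and changed by -0.55 ± 0.11 at the same days with supernatant, both called. Atp5g2, whose reads may be shared with Gm10175, passed in none of the 4 time comparisons, with values of 0.33, 0.26, -0.16 and -0.12.

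**Figure D4:**
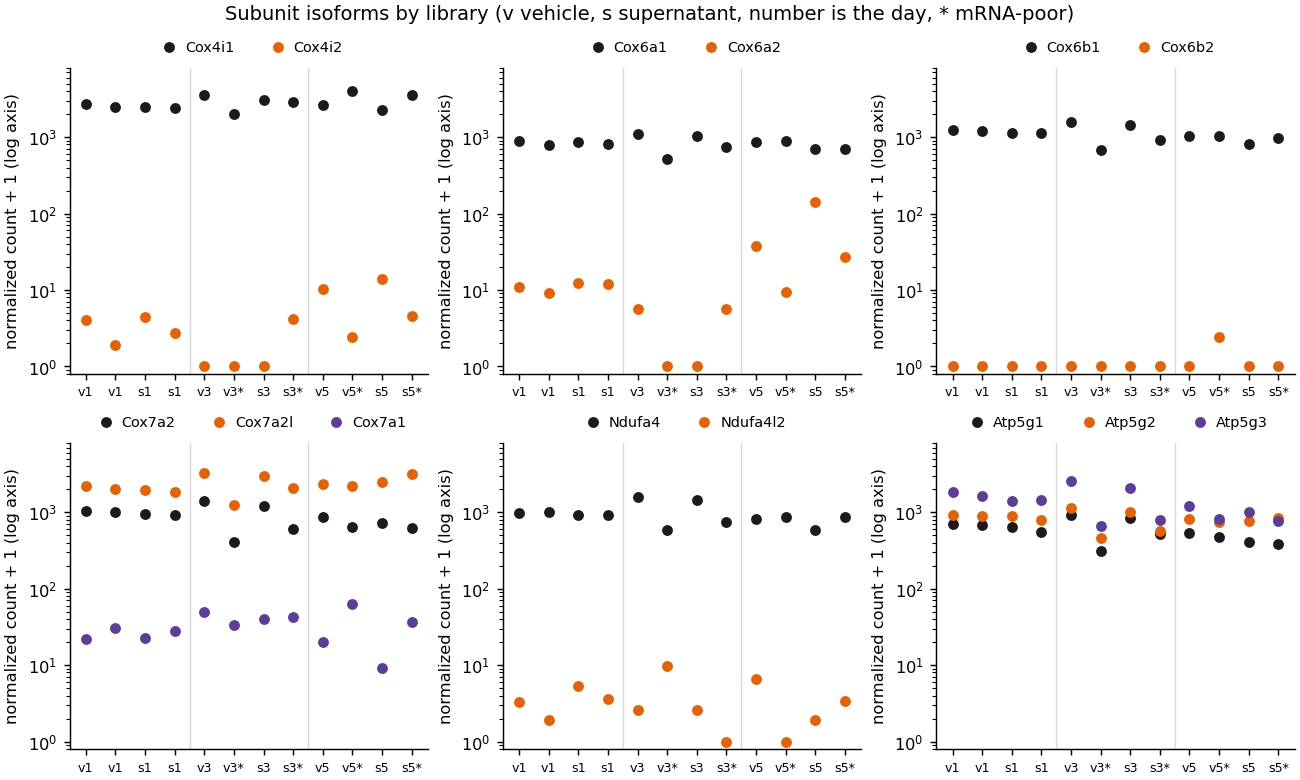
Normalized count + 1 (y axis, log scale, not divided by transcript length, so genes are not to be compared with each other) of subunit isoforms in each of 12 libraries (x axis; v vehicle, s supernatant, the number is the day, * mRNA-poor). Cox6a2 is highest in the supernatant library of day 5 at 141, and Cox6b2 lies on the floor in 11 of 12 libraries.

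The members differed from each other in how far the 4 mRNA-poor libraries lay from the mRNA-rich ones. Over the 4 pairs of replicate 2 and replicate 1 at days 3 and 5, 40 of 84 members were lower in replicate 2 in every pair, as were 68.4% of all tested genes, and 10 were higher in every pair (12.3%). Atp5e, the small epsilon subunit of the synthase, counted 801, 686, 606 and 506 in replicate 1 and 2465, 3085, 2282 and 1872 in replicate 2, while Ndufs1 counted 2582, 2266, 1573 and 1317 against 294, 409, 294 and 346. Every replicate 2 value was higher for Atp5e and lower for Ndufs1. The mean difference went with transcript length: its median was -0.29 in the 29 members under 600 nt, -0.39 in the 21 from 600 to 900 nt, -1.08 in the 16 from 900 to 1500 nt and -1.33 in the 18 of at least 1500 nt. All nuclear protein-coding genes gave -0.25, -0.68, -1.05 and -1.52 in the same bins. Across the 84 members Pearson's r with log length was -0.56 and Spearman's rho -0.54; across all 11448 nuclear protein-coding genes they were -0.20 and -0.22. Genes share the same 8 libraries here and are not independent replicates, and the part of RNA quality in this was not tested.

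**Figure D5:**
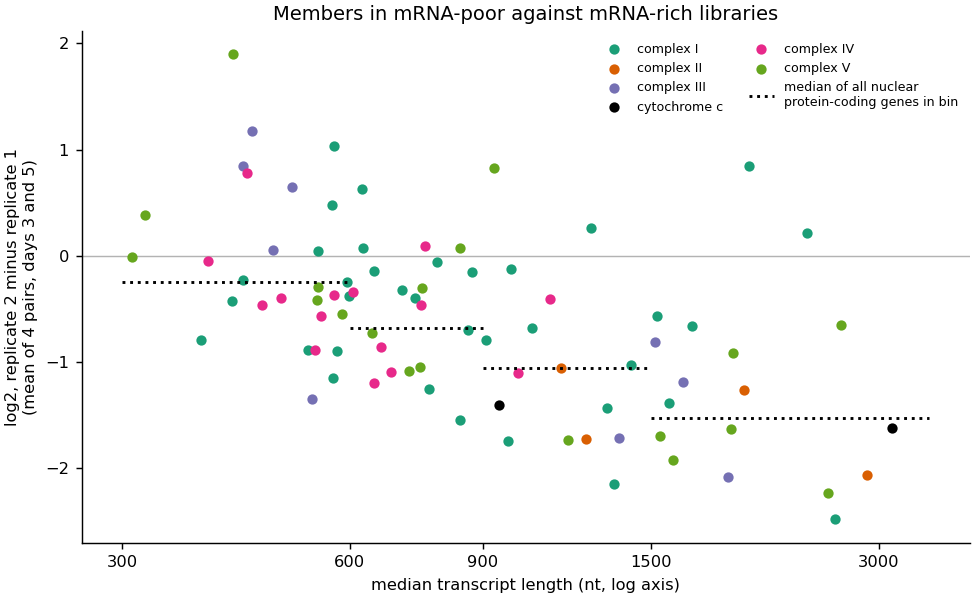
Mean log2 difference between mRNA-poor replicate 2 and mRNA-rich replicate 1 over 4 pairs (y axis) against the median length of a gene's annotated transcripts (x axis, log scale) for 84 members, coloured by complex; dotted lines are medians of all nuclear protein-coding genes in 4 length bins. Members under 600 nt scatter around -0.29 and those of at least 1500 nt around -1.33.

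Other genes of the pathway were counted in the same fit on the mRNA-rich libraries. Of all tested genes, 9.69% rose and 10% fell at day 3 with vehicle, and 10.8% and 9.13% with supernatant. At day 5 the shares were 14.4% and 15% with vehicle and 12.9% and 18.1% with supernatant. Whether a list differs from these shares was not tested. Of the 13 mitochondrially encoded subunits, 0 rose and 2 fell at day 3 with vehicle (median -0.08), where the nuclear members' median was 0.38, and 3 rose and 1 fell with supernatant. mt-Co1, the catalytic subunit of complex IV, fell at day 3 (-0.60 with vehicle and -0.51 with supernatant, the latter 0 under quantile normalization), as did mt-Co2 with vehicle (-0.48), and mt-Nd1, a membrane subunit of complex I, rose with supernatant (0.90). At day 5, 7 fell with vehicle and 6 with supernatant, and none rose. Of 18 genes of the citrate cycle and its entry, 14 rose and 1 fell at day 3 with vehicle, 11 rose and 1 fell with supernatant, and 12 and 17 fell at day 5. Citrate synthase Cs was at 0.26 and 0.25 at day 3, both called, and the kinase Pdk1, which restrains pyruvate dehydrogenase, was the gene that fell, -0.66 and -0.27. When any 1 day 1 library was left out, 0 to 7 citrate cycle genes were called at day 3 with vehicle and 0 to 1 with supernatant, 2 to 9 and 9 to 14 at day 5, and 0 and 0 to 1 mitochondrially encoded ones at day 3, 0 to 2 and 3 to 6 at day 5.

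For the next lists the shares of all tested genes that rose and fell are those given above (at day 3, 9.69% and 10% with vehicle and 10.8% and 9.13% with supernatant). Of 16 assembly factors for complex I, 2 rose and 1 fell at day 3 with vehicle and 3 and 1 with supernatant, and of 34 for complexes II to V, 4 and 7 rose and 0 fell. Ndufaf4 was among the first, at 0.55 and 0.52. Of 45 mitochondrial ribosomal proteins, 6 rose and 0 fell with vehicle and 8 rose and 1 fell with supernatant at day 3, and 16 and 20 fell at day 5. Of 29 import factors and carriers, 10 and 11 rose at day 3 and 15 and 20 fell at day 5. Without 1 of the day 1 libraries, no more than 1 gene of each assembly list and of the ribosomal list was called at day 3, 1 to 5 and 4 to 7 ribosomal genes at day 5, and 0 to 6 and 0 to 1 import genes at day 3, 3 to 12 and 10 to 12 at day 5.

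Among 19 tested regulators of mitochondrial biogenesis, 6 rose and 1 fell at day 3 with vehicle (all genes 9.69% and 10%). With supernatant 7 rose and 1 fell (all genes 10.8% and 9.13%). At day 5, 0 rose in either arm, and 7 fell with vehicle and 8 with supernatant, where 15% and 18.1% of all genes fell. Ppargc1b, the coactivator PGC-1beta known for its part in mitochondrial biogenesis in osteoclasts, counted 152 and 134 with vehicle and 98 and 97.5 with supernatant at day 1. At day 3 it was at 331 and 293 in the mRNA-rich and 2099 and 1902 in the mRNA-poor libraries, all above every day 1 library. It rose by 1.21 with vehicle (adjusted p = 0.00611) and 1.58 with supernatant (adjusted p = 0.00379), and stood at 102 and 108 at day 5 in the mRNA-rich and at 877 and 582 in the mRNA-poor libraries, the latter above every day 1 library. Its relative Ppargc1a had at most 1 normalized count in any library and was not tested. Pprc1, another member of this family, rose by 0.38 and 0.45, and Esrra, a nuclear receptor that works with these coactivators, by 0.34 with vehicle. Nrf1, Gabpa, Yy1 and Tfam, which encode factors named above and the main mitochondrial DNA packaging factor, were not called at day 3, where the highest of their differences was 0.16, for Tfam with supernatant. Without a day 1 library, 0 to 3 regulators were called at day 3 in either arm. At day 5 the counts were 1 to 6 with vehicle and 3 to 4 with supernatant. Hif1a, which encodes the oxygen-regulated factor, changed by -0.83 and -0.91.

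Between arms, 1 of these regulators fell at day 5, Myc, with -1.07 (adjusted p = 0.00832), and none was called at day 1 or 3. Myc counted 443 with supernatant against 929 with vehicle in the mRNA-rich pair and 281 against 148 in the mRNA-poor pair, the opposite order. The inhibitor of the ATP synthase, Atpif1, was lower with supernatant at day 5 in the mRNA-rich pair, 1106 against 1804 (-0.71, adjusted p = 0.0143), but not in the mRNA-poor pair, 1579.7 against 1438. Ucp2, an inner-membrane carrier abundant in macrophages, was lower with supernatant in both pairs of day 5, 3541 against 6078 and 3718 against 4469 (-0.78, adjusted p = 0.0234). The calls of Myc, Atpif1 and Ucp2 at day 5 were lost when any 1 day 1 library was left out.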

How the data were processed

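RNA was sequenced from 12 libraries with TruSeq kits. Per the submitters' processing notes, reads went through TopHat2 and SAMtools with mouse build mm9, and DESeq2 was used. No version, annotation or counting method is given in the sources used here. The authors deposited 1 table of values on a log2 scale. From the values they equal log2(normalized count + 8), so normalized counts and whole reads were recovered (tolerance 0.02 reads). The unit is not a deposited count, so limma was the test. A gene entered the fit where any of the 6 groups averaged 10 or more normalized counts, and log2(normalized count + 1) was fitted with limma 3.58.1 (R 4.3.3) with a trended prior, 1 mean per group and Benjamini-Hochberg adjustment over all 14715 genes. This was done for all 12 libraries and for the 8 in which nuclear protein-coding genes took more than 60% of all reads. The log2 scale with a pseudocount understates changes of low genes. Replicate numbers were checked for pairing and did not enter the fit as a block. The scripts were tested on simulated data. Sums came from pandas 2.3.3 and numpy 2.4.6 under Python 3.11.15, and plots from matplotlib 3.10.9. Transcript lengths are medians over the annotated protein-coding transcripts of a gene in a GENCODE annotation, not that of the submitters.

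The members and all lists were chosen with earlier results of these data known. Named members were drawn from the largest differences of each complex and the smallest adjusted p in each comparison. Core subunits, alternative isoforms and members under the filter were named as well. Copies that share a symbol were counted, with no values of their own given. Alternatives were other pseudocounts, scalings and filters, limma-voom on recovered reads, a term for mRNA-poor libraries, a replicate block and leaving out libraries. The values of 1 core subunit are not reported here.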

Additional observations from a re-analysis of the deposited data

Results flagged for a closer look

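Of the tested members, 6 had supernatant on opposite sides of vehicle on different days. How many of all tested genes did so was not counted, so the 6 have no background share. At days 3 and 5 this was taken from both same-numbered pairs, and at day 1 both supernatant libraries had to lie beyond both vehicle libraries. The difference over these pairs was not tested; the F test across days called 0 members, and groups of 2 libraries are too small to look for outlying samples. Values are the mean log2 difference, supernatant minus vehicle, of the 2 pairs of a day.

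Cox7a2l was at -0.18 at day 1 and 0.29 at day 5. Ndufb4, a membrane-arm subunit of complex I, was at -0.071 at day 1 and 0.28 at day 3. Ndufc1, another complex I subunit, was at 0.054 at day 1 and -0.14 at day 5, and Ndufs6, which carries zinc, at 0.36 at day 3 and -0.097 at day 5. Atp5s was at 0.68 at day 3 and -0.48 at day 5, and Atp5sl at 0.65 and -0.50. In the day 3 means the mRNA-poor pair, where all 84 members and the median gene were higher with supernatant, weighs as much as the mRNA-rich pair. The mRNA-rich and mRNA-poor pairs of day 3 were at 0.037 and 0.52 for Ndufb4 and at 0.034 and 0.69 for Ndufs6. For Atp5s they were at 0.23 and 1.13, and for Atp5sl at 0.02 and 1.29. These day 3 means thus lie mostly in the mRNA-poor pair, and its part in them was not tested.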

How the results depend on the processing

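Counts of called members in the 8 mRNA-rich libraries depended on the processing. A fit of all 12 libraries with a term for the mRNA-poor ones at each of days 3 and 5 called 0 members in each of the 7 comparisons. Without the filter on low values the counts were 17 at day 3 and 9 at day 5 with vehicle, 10 and 23 with supernatant, and 0 between arms at day 1. Quantile normalization gave 0 between arms at day 1 and 2 at day 5. A pseudocount of 5 gave 2 at day 1, and limma-voom gave 5, 2 and 21 between arms at days 1, 3 and 5. Leaving out each day 1 library in turn gave 0 to 0 members between arms on every day, 0 to 22 at day 3 and 1 to 14 at day 5 with vehicle, and 0 to 6 and 16 to 32 with supernatant. Of 124 values given for single members and comparisons, 98 passed the test, and all 98 kept their direction under each alternative, while all 98 missed the threshold with the term for mRNA-poor libraries, 66 without the filter, 12 with quantile normalization, 1 with a pseudocount of 0.5, and 58 to 73 without a day 1 library. These alternatives did not include the fit of all 12 libraries without that term. In it the members' median difference from day 1 to day 3 was -0.38 with vehicle and -0.13 with supernatant. Those signs are opposite to the 0.38 and 0.28 of the mRNA-rich libraries. Among the other values, some signs between arms turned in the fit of all 12 libraries with a term for the mRNA-poor ones. At day 3 these were the members' median (0.17), Ndufa6 (0.26), Sdha (0.015) and Uqcr11 (0.027), and at day 5 Ndufs8 (-0.14). The term is shared by both arms of a day, so these signs turned with the added mRNA-poor pair and not with the term. Without the term the members' median at day 3 was also 0.17. Ndufb2 at day 1 turned to 0.15 without vehicle replicate 2 and to 0.27 without supernatant replicate 1, within a range of -0.69 to 0.27 over the 4 such fits. With quantile normalization the difference of mt-Co1 at day 3 with supernatant was 0. Of 20 called values given for genes outside the symbol rule, the other 19 kept their direction under each alternative, but 17 missed the threshold with the term for mRNA-poor libraries, 12 without the filter, 4 with quantile normalization and 15 to 17 without a day 1 library. The cause was not tested.

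In the fit of all 12 libraries every alternative called 0 members, leave-one-out fits included (0 to 0). The F test across days on the 8 mRNA-rich libraries, chosen after seeing the data, also called 0. With the replicate number as a block the fit of 12 libraries called 0. The deviations of same-numbered libraries correlated at 0.07 at day 1, 0.90 at day 3 and 0.90 at day 5, where replicate 2 is the mRNA-poor library; the samples share only a number, so the block is no evidence of pairing. With 1 mRNA-rich library per arm at days 3 and 5, the spread behind every call there comes from 4 libraries of day 1.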

Other observations

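Atpif1 and Ndufab1, an acyl carrier protein that is also a subunit of complex I, lie outside the symbol rule. Ndufab1 counted 578 and 624 with vehicle at day 1 and 731 and 654 in the mRNA-rich libraries of days 3 and 5. With supernatant it counted 541 and 592, then 771 and 562.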
